A study of Arabidopsis thaliana with 4 samples.

Results

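The 10 genes described here encode xyloglucan endotransglucosylase/hydrolases (XTHs) of Arabidopsis thaliana, out of 33 XTH genes in the family and 23922 loci in the count table. They are XTH4 (AT2G06850), XTH5 (AT5G13870), XTH9 (AT4G03210), XTH11 (AT3G48580), XTH15 (AT4G14130), XTH16 (AT3G23730), XTH22 (AT5G57560), XTH23 (AT4G25810), XTH24 (AT4G30270) and XTH28 (AT1G14720). The members were taken by locus code and were selected on their read counts in these 4 libraries, with the difference between genotypes known. Their values are therefore given as a description, with no p-value. Their calls in the fit across all genes are set beside the share of all genes called, and nothing is drawn from them. All 10 had a row and passed the filter on low counts.

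Transcripts were measured by RNA-seq in callus from hypocotyls of 2 genotypes, the plt1 plt2 double mutant and wild type Col-0, with 2 libraries each and about 100 calli per library. Both genotypes were treated alike. Seedlings grew in darkness for 9 days, and hypocotyl pieces of about 1 cm were then kept in continuous light on callus induction medium (CIM). The CIM held 11 µM of the auxin 2,4-D, 0.2 µM kinetin and 2% sucrose. Time on CIM is given as 6 days in the stage label and as 5 to 6 days in the protocol. No source used here gives the mutant alleles. Separate cultures are not stated for the libraries of a genotype, so the p-values below measure only the spread between these libraries, which may be technical.

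Growing plant cells are held by cellulose microfibrils that are tethered and coated by xyloglucan, the main hemicellulose of the primary wall in Arabidopsis. XTH enzymes cut a xyloglucan chain and either rejoin the cut end to another xyloglucan chain or, in some members, transfer it to water. They are known for remodelling the wall during cell expansion and for incorporating new xyloglucan into it. Transcript counts do not measure enzyme activity.

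The active site is shown first, because it is the stretch by which the family is recognised. Each line gives the 27 coding bases (9 codons), 5′ to 3′ on the sense strand, read from the RefSeq genome and annotation of TAIR10.1. Capitals mark the codons at the positions which in the family motif encode the catalytic glutamate, an aspartate and the second catalytic glutamate.
XTH4: gacGAGataGACtttGAGttccttgga
XTH5: gatGAGataGACtttGAGtttctaggg
XTH9: aacGAAttcGATtttGAGttcttaggg
XTH11: gatGAGctcTGTttcCAGatcttggga
XTH15: gacGAGataGACtttGAGtttctaggt
XTH16: gacGAGataGACtttGAGtttcttggt
XTH22: gacGAGataGATttcGAGtttttaggg
XTH23: gacGAGattGACtttGAGttcttggga
XTH24: gatGAGattGATtttGAGttcttgggt
XTH28: gacGAGattGATtttGAGtttttgggg
The 8 members other than XTH9 and XTH11 matched the motif searched and encoded the same 9 residues as XTH4, with up to 6 bases different. The sequences of XTH9 and XTH11 did not match the motif and are given as aligned to XTH4. Outside the members, XTH1, XTH2, XTH31, XTH32 and XTH33 did not match the motif either. XTH9 shared 7 of the 9 residues with XTH4 and kept both glutamates and the aspartate. XTH11 shared 5 of 9 and kept the first glutamate, but encoded neither the aspartate nor the second glutamate. The stretch of XTH4 lies at chr2:2764493-2764519 (plus strand), that of XTH9 at chr4:1416538-1416564 (plus) and that of XTH11 at chr3:18007740-18007766 (plus). On the plus strand are also XTH16 at chr3:8550598-8550624 and XTH23 at chr4:13129072-13129098. On the minus strand are XTH5 at chr5:4475714-4475740, XTH15 at chr4:8137782-8137808, XTH22 at chr5:23307839-23307865, XTH24 at chr4:14820042-14820068 and XTH28 at chr1:5067931-5067957. Each of these stretches lies within 1 exon.

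Protein sequences translated from the same annotation were between 32.5% (XTH11 with XTH28) and 85.8% (XTH15 with XTH16) identical over aligned positions, with a median of 49.7% over the 45 pairs. XTH22 and XTH23 (82.0%) and XTH4 and XTH5 (75.8%) were the other pairs of closest relatives, and XTH24 was closest to XTH22 (76.3%). The closest relative of XTH28 was XTH27 (78.6%), and that of XTH11 was XTH3, at 42.4%. Exons of the 10 members had no match elsewhere in the genome of at least 95% identity over 50 bases or more. XTH15 shares bases with AT4G14120, which is read from the opposite strand. Without a statement on strand use in counting, it cannot be told from which of these genes reads in the shared bases came.

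**Figure D1:**
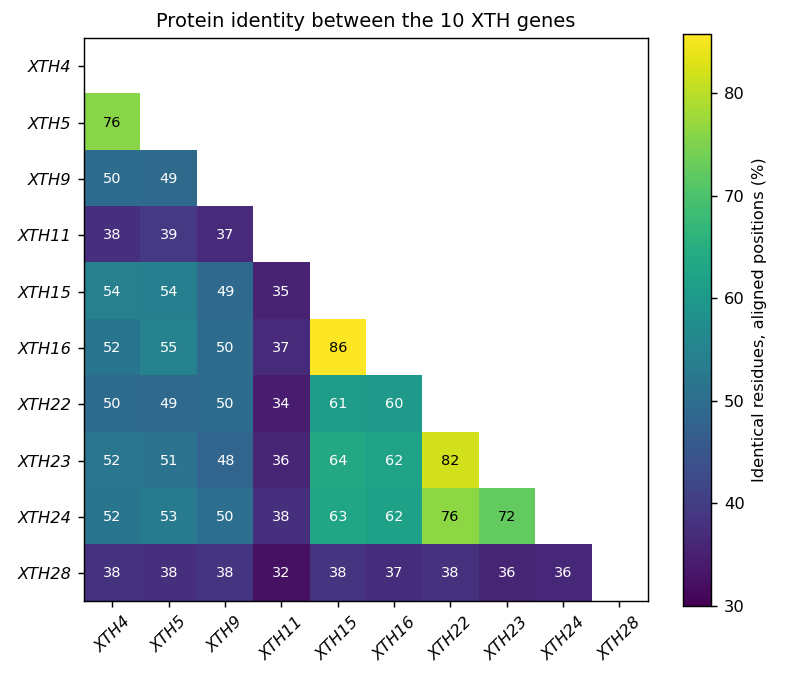
Protein identity between the 10 XTH genes, in percent of aligned positions (lower triangle, colour and printed value, rounded to whole percent). XTH15 with XTH16, and XTH22 with XTH23, are the brightest cells, and the cells of XTH11 and XTH28 are dark throughout.

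Library totals ranged from 53907649 to 63209401 counted reads. The genes named in the mutant were checked first. PLT1 had 122 and 128 CPM (the counts-per-million scale, with TMM-scaled library sizes) in the libraries labelled plt1 plt2, against 171 and 166 CPM in those labelled wild type (edgeR adjusted p = 0.000181). PLT2 had 182 and 179 CPM under the plt1 plt2 label, against 63.1 and 62.1 CPM under the wild type label, which is 2.88-fold higher in the libraries labelled as its mutant (edgeR adjusted p = 3.37e-08). Counts per gene do not show whether a transcript is intact, and each library is therefore named as its label has it. Markers of callus and of root founder cells were detected under both labels: the summed level of 7 such genes was 1660 and 1590 CPM in the libraries labelled plt1 plt2 and 1470 and 1440 CPM in those labelled wild type. Of these sums PLT3 alone gave 943 and 928 CPM under plt1 plt2 and 784 and 757 CPM under wild type.

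In bulk callus, fewer cells of a type and less RNA per cell cannot be told apart, which holds for every level given here. XTH4, an enzyme that acts with XTH9 in secondary growth of the Arabidopsis stem, was the most abundant member. It had 12161 and 10532 reads in the libraries labelled plt1 plt2 (192 and 193 CPM), against 11819 and 11282 reads in those labelled wild type (202 and 198 CPM). The plt1 plt2 values were the lower ones without overlap, but the log2 fold change was only -0.06 ± 0.04 (SE, edgeR; positive values mean higher under the plt1 plt2 label). Its closest relative XTH5 had 720 and 585 reads under plt1 plt2, against 590 and 666 reads under wild type. The 2 labels overlapped for XTH5, at 11.4 and 10.7 CPM under plt1 plt2 against 10.1 and 11.7 CPM under wild type (log2 fold change 0.02 ± 0.09). Per kilobase of exon, XTH4 stood 20.1- and 21.4-fold above XTH5 in the libraries labelled plt1 plt2 and 23.8- and 20.2-fold above it in those labelled wild type.

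XTH9, the partner of XTH4 in secondary growth, had the largest difference in CPM of the 10. It had 2023 and 1877 reads in the libraries labelled plt1 plt2 (31.9 and 34.4 CPM), against 4263 and 4501 reads in those labelled wild type (72.9 and 79.2 CPM). The mean was 2.29-fold lower under plt1 plt2, a log2 fold change of -1.20 ± 0.06. The libraries of a label lay 0.11 (plt1 plt2) and 0.12 (wild type) apart on the log2 scale, less than the difference between labels. XTH11, the member without the aspartate and the second glutamate, had 343 and 342 reads under plt1 plt2, against 618 and 748 under wild type. Both plt1 plt2 libraries, at 5.41 and 6.26 CPM, lay below the wild type ones at 10.6 and 13.2 CPM, a log2 fold change of -1.03 ± 0.13.

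XTH15 and XTH16, the closest pair by protein sequence, were both lower under plt1 plt2. XTH15, a gene known for its induction by shade, had 41 and 32 reads in the libraries labelled plt1 plt2, against 91 and 96 in those labelled wild type. That is 0.647 and 0.586 CPM under plt1 plt2 against 1.56 and 1.69 CPM under wild type, a log2 fold change of -1.39 ± 0.25. XTH16 had 87 and 59 reads (1.37 and 1.08 CPM) under plt1 plt2, against 125 and 114 reads (2.14 and 2.01 CPM) under wild type. Neither gene overlapped between labels, and the log2 fold change of XTH16 was -0.75 ± 0.21. Per kilobase of exon, XTH15 stood at 0.475 and 0.546 of XTH16 under plt1 plt2, and at 0.733 and 0.848 of it under wild type. These were the least abundant members, and their SEs were the widest of the 10.

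XTH24, first isolated as the meristem transcript MERI5, had the largest positive difference of the 10. It had 5109 and 4915 reads in the libraries labelled plt1 plt2 (80.6 and 90.0 CPM), against 3552 and 3530 reads in those labelled wild type (60.7 and 62.1 CPM). The mean was 1.39-fold higher under plt1 plt2 (log2 fold change 0.47 ± 0.06), and the labels did not overlap. The relatives XTH22 and XTH23 differed less. XTH22, the touch-induced gene TCH4, had 317 and 285 reads (5.00 and 5.22 CPM) under plt1 plt2, against 262 and 281 reads (4.48 and 4.94 CPM) under wild type. The labels did not overlap for XTH22, yet its difference (0.12 ± 0.12) was smaller than the gap of 0.14 between its wild type libraries. XTH23, which has a role in lateral root formation, had 1457 and 1029 reads (23.0 and 18.8 CPM) under plt1 plt2, against 931 and 1202 reads (15.9 and 21.1 CPM) under wild type. Its libraries overlapped between labels (log2 fold change 0.18 ± 0.12) and had the widest gap within a label of the 10 genes, 0.41 on the log2 scale in wild type.

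XTH28, known for its part in stamen filament growth, had 634 and 528 reads in the libraries labelled plt1 plt2, against 631 and 614 reads in those labelled wild type. Per kilobase of exon that is 6.71 and 6.49 CPM under plt1 plt2, against 7.24 CPM in both wild type libraries. The labels did not overlap, with a log2 fold change of -0.13 ± 0.08. Its closest relative XTH27, not one of the 10, had 42.2 and 42.6 CPM under plt1 plt2 and 45.6 and 43.1 CPM under wild type (-0.07 ± 0.05, edgeR adjusted p = 0.471).

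**Figure D2:**
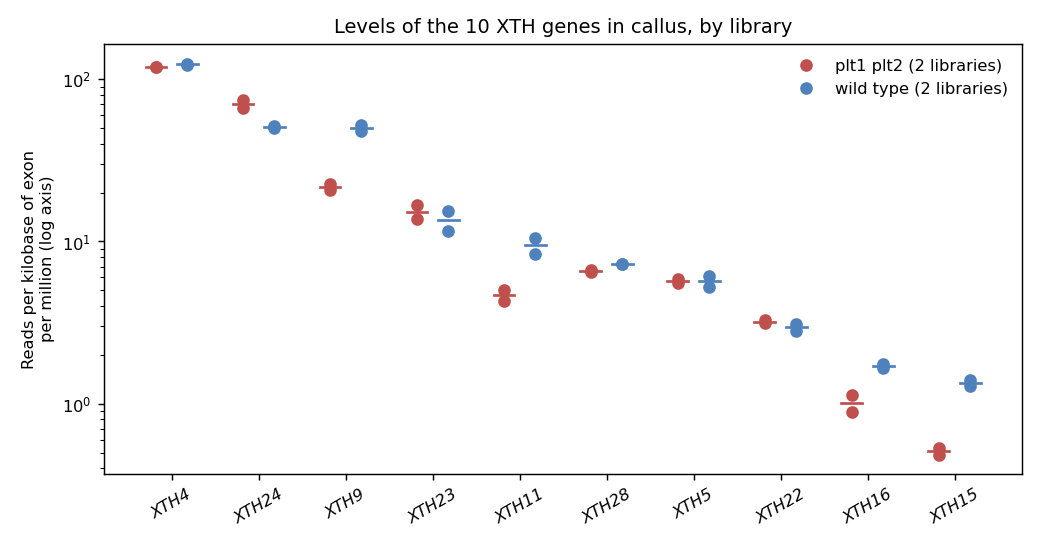
Level of each of the 10 XTH genes in CPM per kilobase of exon (log axis), ordered by the mean of all libraries; points are libraries, those labelled plt1 plt2 left and those labelled wild type right, and lines are means of 2 libraries. XTH9, XTH11, XTH15 and XTH16 are lower under the plt1 plt2 label, XTH24 is higher, and XTH5 and XTH23 overlap.

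Counted over the 10, both plt1 plt2 libraries lay below both wild type libraries for 6 genes and above them for 2, and the labels overlapped for 2. Among all 19325 tested genes 27.7% lay below and 27.0% above in the same sense. The edgeR test across all genes (quasi-likelihood, Benjamini-Hochberg adjusted p below 0.05) called XTH9, XTH11 and XTH15 lower and XTH24 higher, which is 4 of 10 in either direction. Over all tested genes 10.5% were called, 5.86% lower and 4.63% higher. Since the 10 were chosen with this difference known, nothing is read from these shares. XTH15 was not called without the library labelled wild type 2 (log2 fold change -1.33). XTH16 was called lower with DESeq2 size factors, without a filter on low counts, and without plt1 plt2 1 (-0.94). XTH23 was called higher without plt1 plt2 2 (0.31). The median log2 fold change of the 10 was -0.10, and that of all tested genes was 0.00.

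Levels of different genes were compared per kilobase of exon, in CPM per kilobase. XTH4 led with a mean of 119 under plt1 plt2 and 124 under wild type. XTH24 came next, at 70.5 under plt1 plt2 and 50.8 under wild type, and then XTH9, at 21.7 under plt1 plt2 and 49.8 under wild type. In the libraries labelled wild type the values of XTH24 (50.2 and 51.3) and XTH9 (47.8 and 51.9) overlapped. In those labelled plt1 plt2 they were 66.6 and 74.4 for XTH24 and 20.9 and 22.5 for XTH9. The ratio of XTH24 to XTH9 was thus 3.18 and 3.30 under plt1 plt2, against 1.05 and 0.989 under wild type. Below these came XTH23 at 15.2 under plt1 plt2 and 13.5 under wild type, and then XTH28, XTH11 and XTH5 with means between 4.65 and 9.46. Within that trio XTH11 was the highest under wild type (8.43 and 10.5) and the lowest under plt1 plt2 (4.31 and 4.99). XTH22, XTH16 and XTH15 closed the order, and within each label all neighbours in the order were separate in both libraries except XTH24 and XTH9 in wild type and the changed place of XTH11.

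The summed level of the 10 was 361 and 370 CPM in the libraries labelled plt1 plt2, against 391 and 405 CPM in those labelled wild type. The difference of the means was -32.9 CPM, of which XTH9 gave -42.9 and XTH24 gave 23.9. Without XTH9 the sums were 329 and 335 CPM under plt1 plt2, against 318 and 326 CPM under wild type. As a share of the level of the whole family per kilobase of exon, XTH9 held 6.12% and 6.45% under plt1 plt2 and 13.0% and 13.8% under wild type. XTH24 held 19.5% and 21.3% under plt1 plt2 and 13.6% in both libraries labelled wild type. The 10 together held 71.7% and 72.0% of the family level under plt1 plt2 and 70.9% and 72.0% under wild type.

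**Figure D3:**
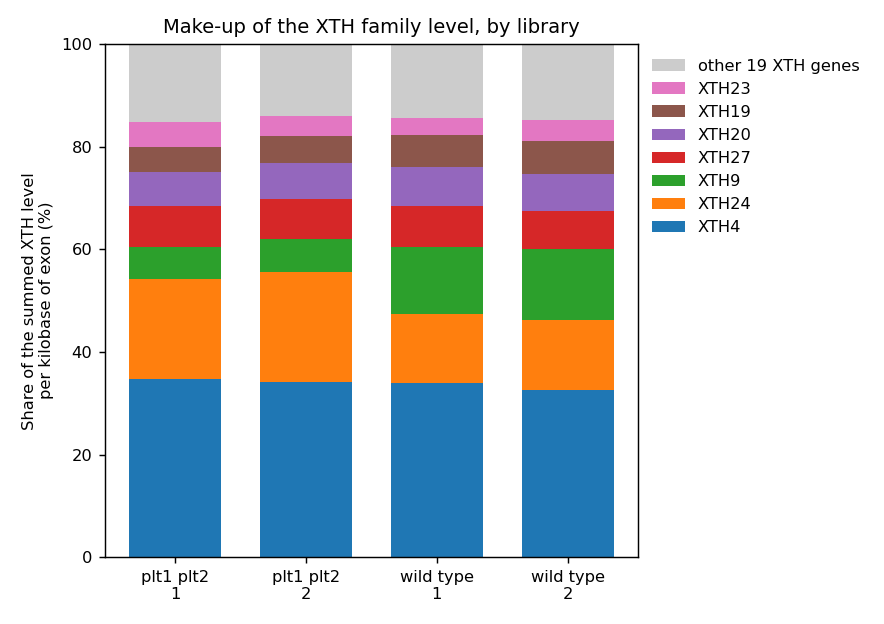
Share of the summed XTH level per kilobase of exon held by each gene, in percent, in the 2 libraries labelled plt1 plt2 (left) and the 2 labelled wild type (right); genes with smaller shares are drawn together in grey. The XTH9 segment is 6.12% and 6.45% under plt1 plt2 and 13.0% and 13.8% under wild type, and the XTH24 segment is taller under plt1 plt2.

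Of the other 23 XTH genes, 7 had no row in the count table used here (XTH1, XTH2, XTH3, XTH12, XTH13, XTH21 and XTH26), and 4 had too few reads to test. Those 4 were XTH6 (2 and 4 reads under plt1 plt2, 4 and 2 under wild type), XTH7 (0 and 0 under plt1 plt2, 1 and 3 under wild type), XTH25 (0 and 2 under plt1 plt2, 0 and 0 under wild type) and XTH32 (0 and 0 under plt1 plt2, 0 and 3 under wild type). Of the 12 tested, 2 were called higher and 3 lower under plt1 plt2, beside 4.63% and 5.86% of all tested genes. Their median log2 fold change was 0.13. As the remainder of a family from which members were picked with the results known, this group was not chosen independently of the counts either.

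XTH8 fell to 6.69 and 6.01 CPM in the libraries labelled plt1 plt2, against 10.8 CPM in both labelled wild type (log2 fold change -0.76 ± 0.10, edgeR adjusted p = 0.000658). XTH19, expressed in roots of intact plants, fell to 21.5 and 23.9 CPM under plt1 plt2, against 31.1 and 32.3 CPM in wild type (-0.48 ± 0.06, edgeR adjusted p = 0.000874). The root-expressed XTH20 fell slightly, with 32.2 and 34.7 CPM under plt1 plt2 and 39.1 and 38.3 CPM under wild type (-0.21 ± 0.05, edgeR adjusted p = 0.0330). XTH30 rose to 15.5 and 15.1 CPM under plt1 plt2, against 11.9 and 10.4 CPM under wild type (0.45 ± 0.08, edgeR adjusted p = 0.00630). XTH14 rose to 2.65 and 3.39 CPM under plt1 plt2, against 1.97 and 1.44 CPM in wild type (0.82 ± 0.21, edgeR adjusted p = 0.0338). The calls of XTH30 (edgeR adjusted p = 0.0605) and XTH14 (0.227) ended without the library labelled wild type 2, and that of XTH14 also without plt1 plt2 2 (0.0610). XTH20 was not called by DESeq2 (adjusted p = 0.0935), nor by edgeR when wild type 1 (0.155), wild type 2 (0.112) or plt1 plt2 1 (0.126) was left out.

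The other 7 tested were not called, XTH27 among them. XTH10 had the lowest log2 fold change of the family, -1.48 ± 0.44, from 10 and 11 reads under plt1 plt2 and 34 and 24 under wild type (edgeR adjusted p = 0.0579). XTH18 had 12.2 and 8.97 CPM under plt1 plt2 and 6.98 and 8.69 CPM under wild type (0.44 ± 0.15, edgeR adjusted p = 0.0946). It was called without the library labelled plt1 plt2 2 (adjusted p = 1.62e-07) and without a filter on low counts (0.0244). XTH29 (0.32 ± 0.31), XTH31 (0.64 ± 0.37) and XTH33 (-0.59 ± 0.35) had between 21 and 56 reads per library. XTH17, at 29 and 8 reads under plt1 plt2 against 12 and 16 reads in wild type, had a log2 fold change of 0.35 ± 0.56, and 15.35% of its exon bases lie in matches elsewhere in the genome, as do 15.36% of those of XTH18.

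**Figure D4:**
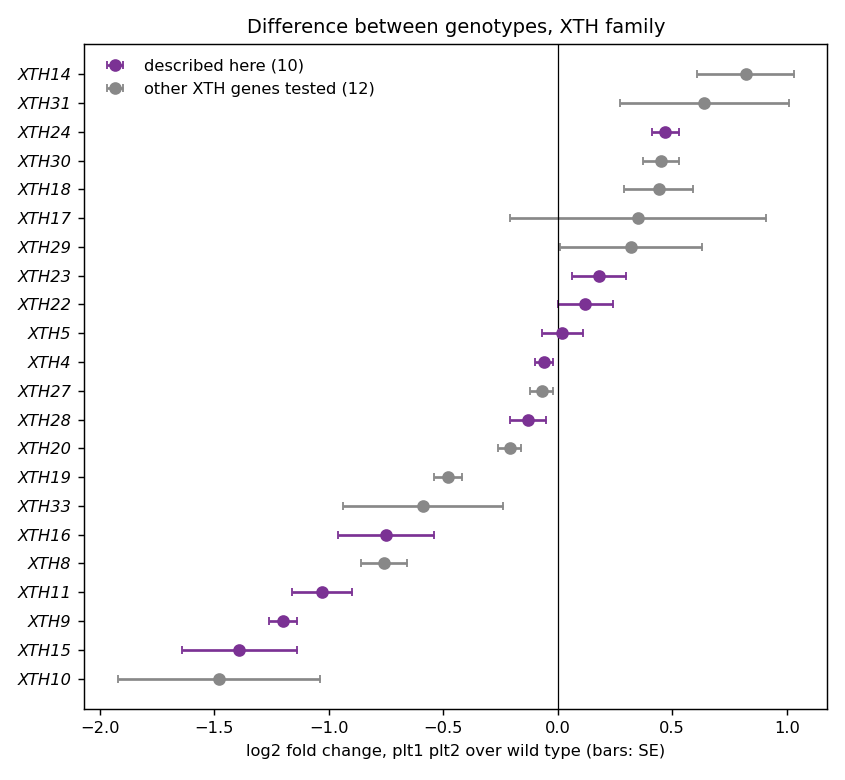
Log2 fold change of the 22 tested XTH genes, plt1 plt2 over wild type, from edgeR; bars are the SE, libraries are grouped by label, purple marks the 10 genes described here and grey the other 12. XTH15, XTH9 and XTH11 lie at -1.03 or below with XTH10, and XTH24 lies at 0.47.

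Several members stand in tandem arrays, and XTH24 and XTH19 of 1 array differed in opposite directions. On chromosome 4, XTH24 (14819192 to 14820595), XTH18 and XTH19 follow each other on the minus strand with no gene between them. XTH24 was higher under plt1 plt2 (0.47), XTH18 was at 0.44 and XTH19 fell (-0.48). XTH23 (chromosome 4, 13128394 to 13129927) lies 363 bases from XTH14 on the plus strand. Their log2 fold changes were 0.18 and 0.82. XTH22 (chromosome 5, 23307006 to 23308680) lies 565 bases from XTH25, for which 2 reads were counted in all 4 libraries together.

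The 250 bases before the annotated start (TAIR10.1, sense strand, 5′ to 3′) are shown for XTH9, the gene with the largest difference in CPM of the 10. They come from chr4:1415367-1415616 (plus strand). Capitals mark the match to the E-box CANNTG.
XTH9: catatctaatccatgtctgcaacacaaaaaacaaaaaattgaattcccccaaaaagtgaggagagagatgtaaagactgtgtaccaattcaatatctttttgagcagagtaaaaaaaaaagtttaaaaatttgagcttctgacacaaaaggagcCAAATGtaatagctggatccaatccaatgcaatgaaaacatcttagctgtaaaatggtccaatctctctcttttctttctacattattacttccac
The E-box was found in 7 of the 10 promoters when the window ran from 250 bases before to 50 after the start, and in 61.7% of the 27443 promoters of protein-coding genes. XTH9 held 1 match before its start. Both strands were searched, and the G-box CACGTG, which is also an E-box, was in none of the 10 and in 7.68% of all promoters. The auxin response element TGTCTC was in none of the 10 and in 14.2% of all. The brassinosteroid response element CGTGTG was in XTH23 alone (6.52% of all), and its variant CGTGCG in none (1.96%). Of the W-box forms, TTGACC was in XTH23 (14.2% of all) and TTGACT in XTH22 (21.8%). None of the 10 held a CAMTA box, whose forms were ACGCGT in 2.10% of all promoters, CCGCGT in 2.27% and GCGCGT in 2.54%. A match is a string of letters and no evidence of binding, and a missing match says only that the letters are not in this window.

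Of 15 tested genes for xyloglucan synthesis (the glucan backbone, its side chains and their acetylation), 1 was called, beside 10.5% of all tested genes. Nothing is drawn from this count. CSLC5, which encodes a glucan synthase for the backbone, fell to 50.7 and 49.7 CPM under plt1 plt2, against 66.8 and 66.3 CPM under wild type (-0.41 ± 0.04, edgeR adjusted p = 0.000233). The summed level of the 15 was 380 and 386 CPM under plt1 plt2, against 400 and 398 CPM under wild type, and their median log2 fold change was -0.04.

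Of the 4 enzymes that trim xyloglucan, 2 were called lower, beside 5.86% of all tested genes, and the other 2 were not called. The list was chosen with earlier results of these data known, so nothing is drawn from this count. XYL1, the alpha-xylosidase, fell to 617 and 605 CPM in the libraries labelled plt1 plt2, against 840 and 829 CPM in those labelled wild type (-0.45 ± 0.04, edgeR adjusted p = 8.80e-05). AXY8, an alpha-fucosidase, had 87.5 and 85.0 CPM under plt1 plt2 and 99.0 and 94.5 CPM under wild type (-0.16 ± 0.05, edgeR adjusted p = 0.0467). AXY8 was not called by DESeq2 (adjusted p = 0.0764) or with the replicate number as a block (0.0725). Leaving out wild type 1 (0.243), wild type 2 (0.0872) or plt1 plt2 2 (0.127) also ended the edgeR call. The median of the 4 was -0.11.

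Of the 3 other touch-inducible genes, which encode calmodulin and calmodulin-like proteins, 1 was called, beside 10.5% of all tested genes. From this count, too, nothing is drawn. CML24 (TCH2) fell to 35.7 and 33.1 CPM under plt1 plt2, against 40.0 and 40.5 CPM under wild type (-0.23 ± 0.05, edgeR adjusted p = 0.0250). A gene on the opposite strand shares bases with CML24. DESeq2 did not call it (adjusted p = 0.0581), and the edgeR call was lost when wild type 1 (0.0930), wild type 2 (0.135) or plt1 plt2 2 (0.107) was left out. CML12 (TCH3) went the other way without overlap, at 5.57 and 5.62 CPM under plt1 plt2 against 5.22 and 3.39 CPM under wild type. It was not called (0.38 ± 0.18, edgeR adjusted p = 0.225). The other touch-inducible genes also share bases with genes on the opposite strand. The median of the list was 0.06.

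Some markers of other cell types differed between the labels as well. All marker lists, callus included, were chosen with earlier results of these data known. Their counts of calls are therefore a description, from which nothing is drawn. Over all tested genes 5.86% were called lower and 4.63% higher. All 4 root cap genes, which encode NAC factors, fell, and their summed level was 26.5 and 37.5 CPM under plt1 plt2, against 62.4 and 57.6 CPM under wild type. The log2 fold changes were -1.17 for FEZ (edgeR adjusted p = 0.000255), -0.93 for BRN2 (0.0192), -0.90 for BRN1 (0.00375) and -0.73 for SMB (0.00856). The count was 2 without wild type 1, where SMB (adjusted p = 0.0927) and BRN2 (0.0889) were not called. BRN2 was also not called without wild type 2 (adjusted p = 0.123), and DESeq2 called 3, without BRN1 (adjusted p = 0.0755). Of 4 phloem genes 3 were called lower, and the sums of the 4 were 4.73 and 4.61 CPM under plt1 plt2, against 9.34 and 8.11 CPM under wild type. Those called were SEOR2 (-1.69, edgeR adjusted p = 0.00290), SEOR1 (-1.39, adjusted p = 0.00897) and SUC2 (-0.52, adjusted p = 0.0482), and DESeq2 called 2 of the 4. APL was also lower without overlap but was not called (-0.97, edgeR adjusted p = 0.0604). Without a filter on low counts APL was called. Of these genes SEOR2 alone was called without wild type 1 or without wild type 2. SUC2 was not called with the replicate block (edgeR adjusted p = 0.0595), where APL was called lower (0.0404), nor without plt1 plt2 2 (0.0512).

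For 5 tested xylem genes edgeR made 0 calls, and 1 passed at an unadjusted p below 0.05. DESeq2 also made 0 calls there. The smallest p-values were those of the secondary wall cellulose synthases CESA7 (-0.26, edgeR adjusted p = 0.167) and CESA4 (-0.18, adjusted p = 0.391). Genes on the opposite strand share bases with CESA7 and CESA4, and a gene on the same strand also shares bases with CESA4. The xylem sums were 18.5 and 16.3 CPM under plt1 plt2, against 18.4 and 22.3 CPM under wild type. Of the root hair genes, RHD6 rose to 13.9 and 13.8 CPM under plt1 plt2, against 5.97 and 4.78 CPM under wild type (edgeR adjusted p = 3.17e-05). RSL4 and COBL9 had at most 8 reads in a library, and EXPA7 had no row in the count table used here. Among the 7 callus and founder cell genes 5 were called higher and 1 lower. Those with the largest changes were LBD17 (0.49, edgeR adjusted p = 0.0310), SCR (-0.37, adjusted p = 0.000871), PLT3 (0.28, adjusted p = 0.00221) and LBD16 (0.28, adjusted p = 0.0157). PLT3 shares bases with a gene on the opposite strand. Of the 5 that rose, 1 was called without wild type 1 and 1 without wild type 2, and 2 without plt1 plt2 1. WOX5, another of the 5, was not called with the replicate block (edgeR adjusted p = 0.0578). The part of these markers in the XTH differences was not tested.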

How the data were processed

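For each of 4 callus RNA-seq libraries the authors deposited raw read counts per gene. The submitters' processing notes name STAR 2.7.2b, Trim Galore 0.5.0, DESeq2 and the genome build TAIR10. The counting tool, annotation and strand use are not given in the sources used here.

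The deposited counts were fitted with edgeR 4.0.16 in R 4.3.3. The steps were filterByExpr by genotype, TMM, glmQLFit and glmQLFTest on genotype alone, with Benjamini-Hochberg adjustment over 19325 of 23922 loci and calls below 0.05. The SE is the size of the log2 fold change divided by the square root of F. CPM used TMM-scaled library sizes. DESeq2 1.42.0 was an alternative. On simulated data (19176 genes, trended dispersions without spread around the trend), only genes averaging 20 or more reads were changed. The test recovered 62% of 50 genes changed 1.25-fold, 86% at 1.5-fold, 94% at 2-fold and 100% at 4-fold. Of 180 calls 9 were false. Recovery of genes with fewer reads was not simulated.

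The 10 members and all gene lists were chosen with earlier results of these data known. Named genes are the members, PLT1 and PLT2, the other XTH genes that were called or averaged 20 or more reads, and of each other list up to 4 called genes, or the 2 with the smallest p. XTH10 and XTH17, which have fewer reads, were named after their values were seen, to account for the family. APL, WOX5 and CML12, whose calls changed between settings, were also named after their values were seen. Promoters, coding sequences and positions were read from RefSeq TAIR10.1. No protein table was used; proteins were translated from annotated coding sequences and aligned globally (BLOSUM62, Biopython 1.88), and exons were searched with blastn 2.17.0. Chi-square over genes between libraries of 1 label, per degree of freedom, was 7.746 for plt1 plt2 and 5.345 for wild type, above sampling noise. The libraries were therefore not merged as repeat deposits of 1 library, which does not show that they came from separate cultures. The alternatives were DESeq2, its size factors, no filter, a replicate block, each library left out, coding in place of exon length and a promoter window without the bases after the start.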

Additional observations from a re-analysis of the deposited data

How the results depend on the processing

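Under the 8 alternatives (DESeq2 size factors, DESeq2, no filter on low counts, a replicate block, and leaving out each library), XTH9, XTH11, XTH15, XTH16, XTH4 and XTH28 were lower and XTH22 and XTH24 higher throughout. The labels did not overlap for these genes, so leaving out a library could hardly change their direction. The other settings refit the same libraries, and nothing is drawn from the constant direction. XTH9 ranged from -1.26 to -1.14 on the log2 scale, XTH11 from -1.18 to -0.86, XTH15 from -1.47 to -1.32, XTH16 from -0.94 to -0.59 and XTH24 from 0.39 to 0.55. XTH5 (-0.09 to 0.13) and XTH23 (-0.01 to 0.40) changed sign, and neither was called with all libraries. Calls over all genes ranged from 433 to 1275 higher and from 606 to 1751 lower when 1 library was left out, against 894 and 1133 with all 4; they were 433 and 635 without wild type 2, 531 and 606 without wild type 1, and 1275 and 1751 without plt1 plt2 1. No filter gave 1116 higher and 1373 lower, and DESeq2 gave 672 and 925. With 1 library left out, the members called ranged from 1 to 2 higher and from 2 to 4 lower, and the other XTH genes from 0 to 2 higher, the 0 without wild type 2. Over the same fits xyloglucan synthesis genes ranged from 0 to 1 higher, trimming genes from 1 to 2 lower, touch genes from 0 to 1 higher and 0 to 1 lower, callus markers from 1 to 5 higher and 1 to 2 lower, root cap markers from 2 to 4 lower, xylem markers from 0 to 1 lower and phloem markers from 1 to 4 lower. Of the trimming genes 1 was lower by DESeq2 and 1 with the replicate block, and of the touch genes 0 by DESeq2; the cause was not tested. A lone library of a label was assumed to vary like the other label's.

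The replicate block gave 828 genes higher and 1081 lower. Same-numbered libraries share only a number (correlation of their deviations across genes -0.0896), so the block is no paired design. Per coding length in place of exon length, XTH5, XTH11 and XTH28 held ranks 5, 6 and 7, and with the 250 bases before the start alone 6 promoters held an E-box and the XTH23 match to TTGACC was outside. XTH15 and XTH16 had 32 to 125 reads per library, and the part of depth in their SEs was not tested.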
